A study of Homo sapiens with 7 samples.

Results

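The S100 calgranulin cluster is a run of neighbouring genes on human chromosome 1 that encode small calcium-binding proteins, among them S100A9, S100A12, S100A8, S100A6 and S100A4. It was examined here as the window chr1:153280000-153620000 (hg19), set by position alone, though chosen with earlier results of these data known, and its members are the VDR peaks that overlap it. There were 22 such peaks among the 35564 peaks of the 6 lists over the part of the genome that all of them cover, and they merged into 13 of 28993 sites.

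The peaks come from ChIPmentation (immunoprecipitation of chromatin with adapters inserted by a transposase), done with an antibody against the vitamin D receptor (VDR) in THP-1, an established human monocytic leukaemia line. One group of 3 libraries came from cells given 100 nM 1α,25-dihydroxyvitamin D3 (1,25D) for 8 h and the other group of 3 from cells given the solvent, 0.1% ethanol (EtOH), for the same time. The labels do not tie the libraries to separate cultures, so p-values measure only the spread between these libraries, which may be technical. Each list gives the extent of its peaks, a fold enrichment and a p-value from the authors, and no read counts, so the depth behind a peak is unknown.

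VDR is a nuclear receptor that binds DNA mainly as a partner of the retinoid X receptor, typically at 2 hexamers in direct repeat with 3 bases between them, and its ligand 1,25D strengthens that binding and changes which cofactors it recruits. S100 proteins carry EF-hand calcium-binding loops. S100A8 and S100A9 pair to form calprotectin, a very abundant cytosolic protein of neutrophils and monocytes that starves microbes of metal ions and acts as an alarm signal when released. S100A12 is a related myeloid protein that signals through the receptor RAGE, S100A6 (calcyclin) is found in many cell types, and S100A4 is known for its link to cell motility and metastasis.

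The gene table used here is of GRCh38, another build than the lists, so it served for names and order only and the peaks were not placed within genes. In that order, S100A9, S100A12 and S100A8 follow PGLYRP4, a peptidoglycan recognition protein gene. They precede S100A7A and S100A7 (psoriasin), which are best known from inflamed skin. S100A6, S100A5, S100A4, S100A3 and S100A2 come next, then S100A16, S100A14, S100A13 and S100A1, and last CHTOP.

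The promoter windows of the named genes were searched for exact matches to 4 hexamers of the kind that a direct VDR site can be made of. Other forms of the hexamer were not searched. RefSeq windows (GRCh38.p14, 250 bases before to 50 after a start) were at hand for all 5 genes, with 3 starts for S100A8. The hexamers AGGTCA or GGGTCA or AGTTCA or GGTTCA were sought on both strands. Single matches lay before the start of S100A9, of S100A4 and of 1 of the 3 starts of S100A8, and S100A12 had 2 matches, while S100A6 had none. They are printed here 5′ to 3′ on the gene's own strand, with the hexamer, or its reverse complement, in capitals.
S100A9, chr1:153357612-153357651, plus strand: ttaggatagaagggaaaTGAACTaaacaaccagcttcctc
S100A12, chr1:153375827-153375866, minus strand: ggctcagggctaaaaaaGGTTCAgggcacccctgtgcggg
S100A12, chr1:153375622-153375655, minus strand: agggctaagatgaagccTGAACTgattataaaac
S100A8, chr1:153390977-153391007, minus strand: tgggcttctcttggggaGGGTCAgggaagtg
S100A4, chr1:153545808-153545847, minus strand: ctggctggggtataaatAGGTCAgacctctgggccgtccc

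Such single hexamers were common, with at least 1 in 38.6% of the 35116 promoter windows of the table. The direct repeat of these exact hexamers with 3 bases between was found in 26 of the 35116 windows (0.0740%) and in none of the windows of the 5 genes. A match describes the letters only. These positions are of GRCh38 and cannot be set beside the peak positions below, which are of hg19, and sequence under the peaks was not analysed here.

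Across the window, each 1,25D library had 4 peaks, and the EtOH libraries had 3, 5 and 2 (replicates 1 to 3). The mean was 4 after 1,25D, with no spread, and 3.33 ± 1.53 after EtOH (SD, n = 3), and the ranges overlapped (two-sided exact permutation p = 0.7, or 0.933 with Benjamini-Hochberg adjustment over 4 such comparisons). The strongest peak had a fold of 7.89, in 1,25D replicate 3, where it ranked in the top 9.04% of its list, and the next had 7.32, in EtOH replicate 1, in the top 1.60%. No other peak of the window reached a fold of 5, so each treatment had 1 such peak (exact permutation p = 1, adjusted 1). Over the compared part, such peaks numbered 753 of 5203, 820 of 3647 and 896 of 4424 in 1,25D replicates 1 to 3. In EtOH replicates 1 to 3 they numbered 283 of 5251, 291 of 11317 and 190 of 5722.

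Few positions recurred. There were 2 sites in every 1,25D list that no EtOH list had, 1 site was in all 6 lists, and the other 10 were each in a single list. The 1,25D-only sites were 15.4% of the 13 sites of the window, against 1.70% of all sites, and the site in all 6 lists was 7.69% against 1.03%. Single-list sites made up 76.9% of the window against 89.8% of all sites. No site of the window was in all EtOH lists without 1,25D. How common that kind is over all sites is not given here. On chromosome 1 the closest ones were 8276 kb before the window and 20707 kb after it. The shares given above rest on a small number of sites and carry no test.

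**Figure D1:**
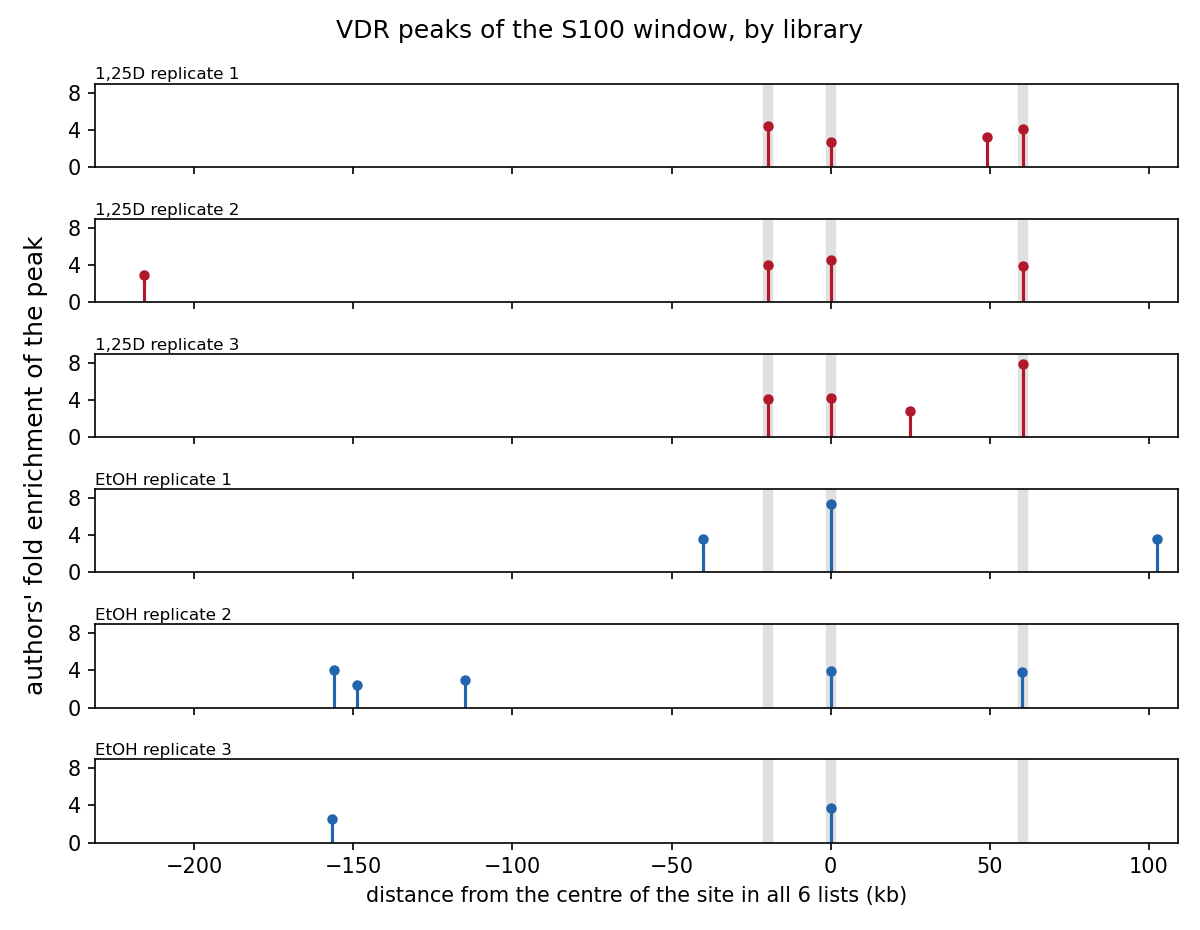
Each panel is 1 library, red for 1,25D and blue for EtOH. Each stem is a peak, placed by its distance in kb from the centre of the site in all 6 lists, with the authors' fold enrichment as its height, and grey bars mark the 3 sites found in several lists. The outer grey bars hold a stem in every 1,25D panel. The only EtOH stem on either is that of EtOH replicate 2 on the right-hand bar, a separate peak 138 bp before that site.

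The 3 repeated sites lay together in the right-hand part of the window. The left site, at chr1:153491171-153491495, was 19.1 kb before the middle site, at chr1:153510636-153511423. The right site, at chr1:153571273-153571619, began 59.9 kb after the middle one. From the first base of the left site to the last of the right one is 80.4 kb of the window's 340 kb. In all of the window before the left site there were 6 sites, each in a single list, 5 of them from EtOH lists. The EtOH lists are also longer, with 5251, 11317 and 5722 peaks in the compared part (replicates 1 to 3). The 1,25D lists have 5203, 3647 and 4424, and the part of list length in this count was not tested.

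The left site was a 1,25D-only site with closely matching values. Its fold was 4.43, 4.05 and 4.15 in 1,25D replicates 1 to 3, a mean of 4.21 ± 0.197 (SD, n = 3), with the authors' p-values of 2.18e-06, 3.62e-05 and 3.78e-05. The peaks were 200, 266 and 155 bp wide and shared a core of 129 bp. In their own lists they ranked within the top 22.6%, 35.3% and 30.9% by fold. Among the 492 sites of the genome part that were in every 1,25D and no EtOH list, this one ranked 360 by mean fold, below the median of 4.86. All 3 values lie close together and in the lower part of the range of that kind.

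The right site had the higher mean fold of the pair only through 1 library. Its fold was 4.16 in 1,25D replicate 1, 3.87 in replicate 2 and 7.89 in replicate 3, a mean of 5.31 ± 2.24 (SD, n = 3), with p-values of 5.81e-06, 6.42e-05 and 3.37e-13. Replicate 3 stood above the others. Without it the mean was 4.01, against 4.24 at the left site, so the order of the pair turned. With all 3 lists the site ranked 189 of the 492. The centres of its peaks differed by at most 45 bp, and the peaks, 282, 246 and 322 bp wide, shared a core of 239 bp.

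The right site had an EtOH neighbour. EtOH replicate 2 had a peak at chr1:153570987-153571135, with a fold of 3.85 and a p of 2.61e-05, which ended 138 bp before the right site began. It shared no base with any 1,25D peak and was counted as a site of its own. If peaks up to 200 bp apart are merged, the right site is in 4 lists and the left site alone remains 1,25D-only. No EtOH list had a peak within 1000 bp of the left site.

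**Figure D2:**
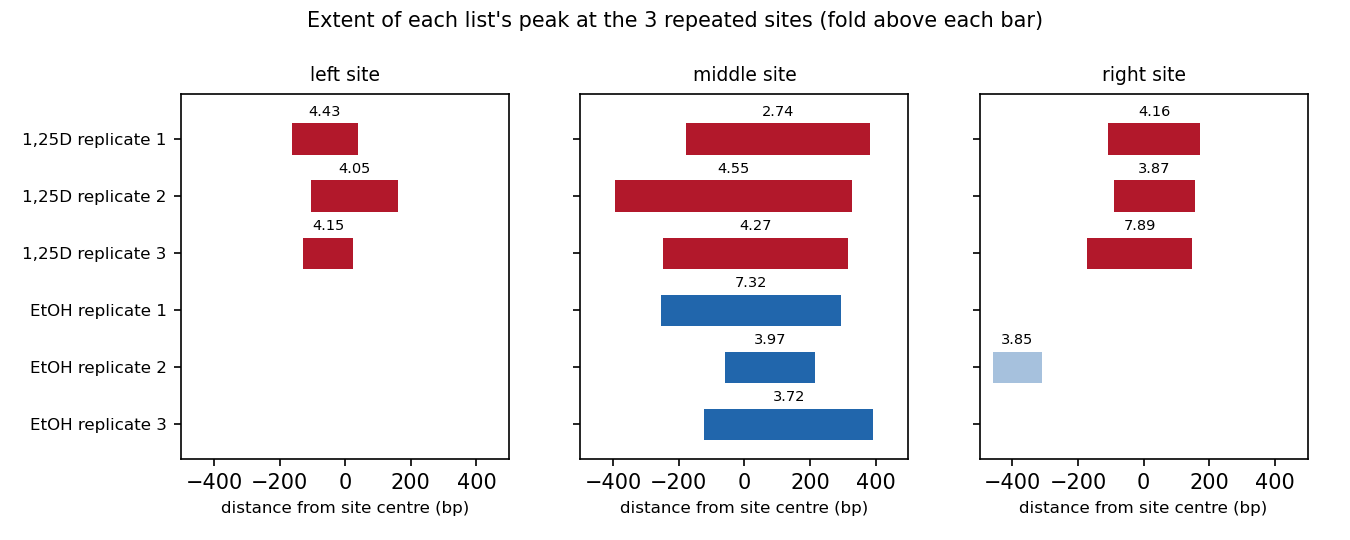
Each bar is the extent of 1 list's peak at the left, middle or right site, by distance in bp from the centre of the merged site, with the authors' fold above it. Red is 1,25D, blue is EtOH, and the pale bar is the EtOH replicate 2 peak that ends 138 bp short of the right site. The middle site alone has a bar in all 6 lists.

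The middle site was called in every library, with and without the hormone. Its fold was 2.74, 4.55 and 4.27 in 1,25D replicates 1 to 3 and 7.32, 3.97 and 3.72 in EtOH replicates 1 to 3. The means were 3.85 ± 0.979 and 5.003 ± 2.01 (SD, n = 3 each), and the ranges overlapped. EtOH replicate 1 was the highest of the 6 and 1,25D replicate 1 the lowest. The higher EtOH mean rests on EtOH replicate 1: without it the EtOH mean was 3.846, against 3.854 for 1,25D, so the order of the means turned. No test was run on folds, which each list carries on its own scale.

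Over all 3 lists per treatment, 27 of the 298 sites in all 6 lists (9.06%) had the higher mean fold in EtOH, and the middle site was 1 of them only with EtOH replicate 1 included. The order of these 298 sites within each list gives a comparison that does not rest on the fold's own scale. By fold, the middle site ranked 292, 261 and 276 of 298 in 1,25D replicates 1 to 3 and 82, 246 and 255 in the EtOH replicates. All its 1,25D ranks were thus below all its EtOH ranks, as at 72 of the 298 sites (24.2%). Ranks are relative to the other sites. The median of the mean folds of all 298 sites was 10.2 in the hormone lists and 5.55 in the solvent lists, and its part in these ranks was not tested.

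The middle site was also the widest peak of the window in all 6 lists. Its peaks were 562, 723 and 564 bp wide after 1,25D and 549, 275 and 517 bp after EtOH, means of 616 ± 92.4 and 447 ± 150 bp (SD, n = 3). All 6 shared a core of 275 bp, which is the whole peak of EtOH replicate 2. In 1,25D replicate 1 the peak was broad but shallow: it spanned 562 bp where the shortest peaks of that list span 147 bp, yet its p-value was 0.000442 and it ranked 4971 of 5203 peaks by fold.

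**Figure D3:**
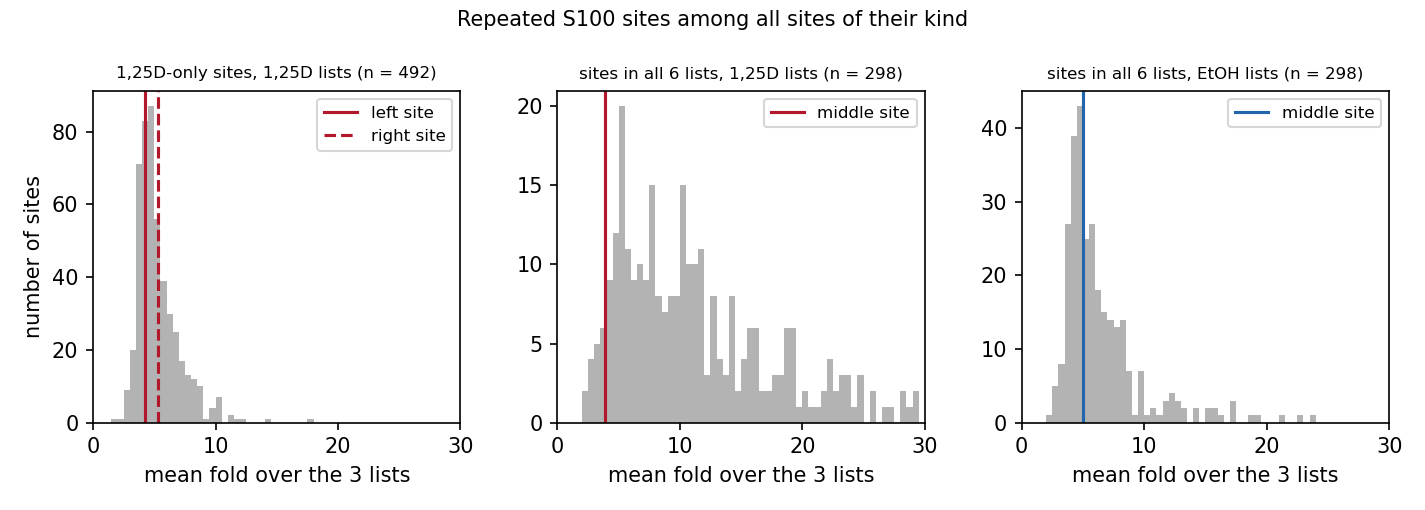
Grey bars count sites by their mean fold over 3 lists: the 492 1,25D-only sites in the 1,25D lists, and the 298 sites in all 6 lists for each treatment. The vertical lines are the sites of the S100 window, and 11 and 3 shared sites lie beyond the axis limit of 30 in the middle and right panels. The left and right sites sit in the bulk of their kind, whereas the middle site is near the low end after 1,25D and close to the median after EtOH. Its place after EtOH rests on EtOH replicate 1. Without that library the EtOH mean was 3.85, and EtOH replicates 2 and 3 ranked the site 246 and 255 of 298.

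By their medians, the 10 single-list sites were narrower and had a lower fold. Their widths ran from 141 to 249 bp with a median of 148 bp, against 155 to 723 bp and a median of 302 bp for the 12 peaks of the repeated sites. Their folds ran from 2.38 to 4.06 (median 3.10), against 2.74 to 7.89 (median 4.16), pooled over lists. Within EtOH replicate 2 a single-list peak (4.06) stood above the middle site (3.97), as in 1,25D replicate 1 (3.22 against 2.74). In the remaining lists every single-list peak had a lower fold than the peaks of the repeated sites. In 7 of the 10 the width was exactly the shortest that the list contains (141 to 148 bp, depending on the list), and in 9 it was within 25 bp of it. None of the 12 peaks of the repeated sites was at that shortest width. Peaks at the shortest width were a large part of every list, 17.4% to 41.3% of the 1,25D lists and 35.6% to 57.8% of the EtOH lists. Width was also not independent of recurrence, since a wider peak has more bases to share.

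Of these 10 sites, 3 were in 1,25D lists and 7 in EtOH lists, a split that was not set beside that of all single-list sites. In the compared part the 1,25D lists hold 5203, 3647 and 4424 peaks and the EtOH lists 5251, 11317 and 5722 (replicates 1 to 3). The part of list length in the split was not tested. The 3 sites in 1,25D lists had folds of 3.22, 2.94 and 2.81 (replicates 1 to 3). EtOH replicate 2 alone gave 4, with folds of 2.38 to 4.06, and it is also the longest list, with 11317 peaks in the compared part against 3647 to 5722 in the others. EtOH replicate 1 gave 2, with folds of 3.61 and 3.64. The single one of EtOH replicate 3, at 153354185, had a fold of 2.58 and lay 628 bp before a peak of EtOH replicate 2 with a fold of 4.06. The weakest had p-values of 0.00521 and 0.00878, in EtOH replicates 2 and 3. The highest p-value found was 0.00431 in the list of EtOH replicate 1 and 0.00433 in that of 1,25D replicate 1. Those lists thus held no peak that weak.

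**Figure D4:**
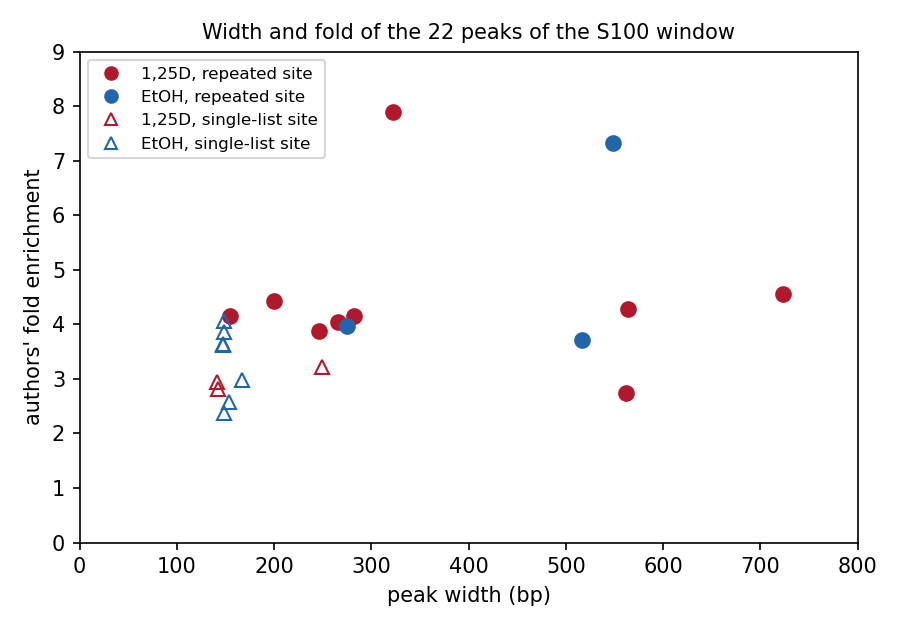
Each symbol is 1 of the 22 peaks, by its width in bp and the authors' fold enrichment. Filled circles are peaks of the repeated sites, open triangles are peaks in a single list, red is 1,25D and blue is EtOH. The triangles gather at the left, 9 of 10 of them at 167 bp or less, while the circles run up to 723 bp.

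More of the window was under a peak after 1,25D. Peaks covered 1293, 1376 and 1183 bp in 1,25D replicates 1 to 3 and 843, 886 and 671 bp in the EtOH replicates. The means were 1284 ± 96.8 and 800 ± 114 bp (SD, n = 3), a difference of 484 bp, and the groups did not overlap. The two-sided exact permutation p was 0.1, the smallest that 3 against 3 libraries allow, and 0.2 after the same adjustment. The same separation held in 10.5% of the 2630 windows of 340 kb that contain a site.

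Split by kind of site, the repeated sites covered 1107 ± 111 bp after 1,25D and 447 ± 150 bp after EtOH (SD, n = 3). Single-list sites covered 177 ± 62.1 and 353 ± 234 bp. The left and right sites were classed by having no EtOH peak, so the EtOH value for repeated sites is the width of the middle site alone. This split thus largely restates how the sites were classed. Peak width differed between the treatments over the lists as a whole, with means of 260 ± 41.2 bp after 1,25D and 189 ± 9.19 bp after EtOH, and its part in the covered length was not tested. Within the window the mean width was 321 ± 24.2 and 265 ± 80.4 bp. With weaker peaks than fold 5 left out, the difference in covered length turned to -75.7 bp, on 1 peak per treatment.

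The share of a library's peaks that fell in the window was 0.0769%, 0.110% and 0.0904% in 1,25D replicates 1 to 3 and 0.0571%, 0.0442% and 0.0350% in the EtOH replicates. These groups did not overlap either (two-sided exact permutation p = 0.1, adjusted 0.2), and in 14.6% of the 2630 windows the 1,25D lists were likewise all above the EtOH lists. The lists differ in length, from 3647 to 11317 peaks in the compared part, and the part of that in the share was not tested. Between the replicates 1 the difference was 0.0197 percentage points, and it was 0.0605 over the other 4 libraries, whose lists run to a higher p-value. With weaker peaks than fold 5 left out, the difference was -0.0806 percentage points.

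The surroundings held no repeated site of these kinds. The stretches of equal length directly before and after it had 21 and 7 sites, with none that was 1,25D-only or in all 6 lists. The highest fold in either was 4.58, in EtOH replicate 1. Of the 2630 windows, 2.85% had at least 2 1,25D-only sites and 25.1% had at least 13 sites of any kind, and the medians were 0 and 8.

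Beyond the window, the closest 1,25D-only sites were 1139 kb before it, at chr1:152140417-152140729 (mean 1,25D fold 3.89), and 707 kb after it, at chr1:154327100-154327342 (6.15). The closest sites in all 6 lists were 2384 kb before, at chr1:150894735-150895637, with mean folds of 9.85 after 1,25D and 7.46 after EtOH, and 2326 kb after, at chr1:155945727-155946642, with 13.1 and 3.92.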

How the data were processed

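Peaks of 6 VDR ChIPmentation libraries were used, 3 per treatment; the input library was not analysed here. The submitters' processing notes name the build hg19 (GRCh37), the aligner Bowtie 1.1 and the peak caller MACS2; its settings and control are not stated there. Each deposited list belongs to 1 library and gives, per the file headers, the fold enrichment (a ratio) and the p-value of each peak as the authors computed them. As used here, 3 lists ended in mid-line; all 6 cover chromosome 1, and comparisons over all sites were limited to the part that every list covers, up to chromosome 16 at 50293713. Whether starts count from 0 or 1 is not stated.

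Peaks sharing at least 1 bp were merged into sites, and a list's highest fold at a site was taken. Per-library values were compared with two-sided exact permutation tests (SciPy 1.17.1, Python 3.11.15, NumPy 2.4.6). Merging was tested on simulated lists in which the planted peaks of a site always overlapped. That test did not cover peaks that lie close together without sharing a base. Named sites are those in at least 2 lists, those with a fold of 5 or more, and each list's strongest peak; the single-list sites named beside them were picked with their values in view. The members and rules were chosen with earlier results of these data known, and the ranks, widths and covered length of all windows were added after the lists were seen. No protein sequences were used here, so the planned protein comparison was not run. Columns of other samples numbered 0.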

Additional observations from a re-analysis of the deposited data

How the results depend on the processing

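The count of sites in every 1,25D and no EtOH list, 2, was 1 with peaks up to 200 bp apart merged and 1 with the window narrower by 50 kb on each side, which drops the right site. With peaks under fold 5 left out it was 0, and likewise under fold 10 (0). Counting sites in at least 2 1,25D lists and no EtOH list gave the same numbers (2, then 1, 1, 0 and 0). The site in all 6 lists was lost with either limit on fold (0 sites). These counts did not move with an overlap of 50% of the shorter peak, 1 highest p for all lists, a window wider by 100 kb on each side or any library left out, and the EtOH-only count stayed at 0 under every alternative run. The wider window and the left-out libraries could add sites to these counts but not remove those already counted. Peaks of the repeated sites had p-values of at most 0.000442, under the common limit of 0.00431, so that limit could not remove them either. The difference in covered length turned to -75.7 bp, and that in share of peaks to -0.0806 percentage points, with peaks under fold 5 left out. Both of these rest on 1 peak per treatment. The difference in the number of peaks, 0.667, ran from 0 without EtOH replicate 3 to 1.5 without EtOH replicate 2, and was 1.33 with 1 highest p for all lists. For covered length and share, leaving out each library gave 419.5 to 534.5 bp and 0.0382 to 0.0546 percentage points, with an exact permutation p of 0.2, the smallest 2 against 3 libraries allow. Over the 298 shared sites, deviations of same-numbered libraries correlated at 0.0895, -0.00461 and -0.0235. Those of libraries with other numbers correlated at -0.0892 to 0.0980. With so few libraries, these values cannot decide whether the replicate numbers pair the libraries. With the numbers as a replicate block, the differences of 0.667 peaks, 0 peaks with a fold of 5 or more, 484 bp and 0.0469 percentage points had exact sign-flip p of 0.75, 1, 0.25 and 0.25, where 0.25 is the smallest possible. Depth is unknown, so an uncalled site cannot be read as an unbound one.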

Other observations

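Some peaks share their exact fold and p with many others of their list. The single-list peak of 1,25D replicate 2 at 153295314, with a fold of 2.94 and a p of 0.000886, has exactly the same fold and p as other peaks of its list, 342 in all counting itself. The other 9 single-list peaks shared theirs with 3 to 27 peaks, counting themselves. The peaks of the repeated sites shared their pair of values with at most 7 peaks of their list, again counting themselves, and the fold of 7.32 at the middle site in EtOH replicate 1 was held by 1 peak alone. That peak ranked 84 of 5251 by fold in its list, the highest standing of any peak of the window.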
